A study of Mus musculus with 8 samples.

Results

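The genes described here handle arginine in macrophages. They are Slc7a2, which carries arginine into the cell, the arginases Arg1 and Arg2, Nos2, which is the inducible nitric oxide synthase, Gch1, which makes the cofactor of that enzyme, Ass1 and Asl, which rebuild arginine from citrulline, and Odc1, Srm and Sat1 of polyamine metabolism. They were chosen by name, as all probe sets annotated to 1 of these 10 symbols alone. This gave 17 of the 45037 probe sets tested, with 4 for Slc7a2, 3 for Odc1, 2 each for Arg2 and Gch1 and 1 for each of the other genes. Another probe set, 1416239_at, is annotated to both Ass1 and Gm5424, a pseudogene of it. Its values are given under both names and it is not counted among the 17.

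Arginine is the substrate of competing enzymes in macrophages. Nitric oxide synthase turns it into nitric oxide and citrulline, and needs tetrahydrobiopterin, whose synthesis GTP cyclohydrolase (Gch1) begins. Arginase turns it into urea and ornithine, and ornithine decarboxylase (Odc1) makes from ornithine the first polyamine, putrescine. Nos2 and Arg1 are the classical markers of macrophages activated with LPS and IFN-γ or with IL-4.

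RNA was taken from macrophages that had been grown from the bone marrow of wild-type C57BL/6J mice in L929 cell supernatant as the source of growth factor, and replated on day 7 in medium without it. The cells were then kept for 24 hours in media alone (M0), with LPS at 100 ng/ml and IFN-γ at 20 ng/ml (M1), or with IL-4 at 20 ng/ml (M2). There were 3 M0, 3 M1 and 2 M2 arrays, which the labels call biological replicates. The methods do not settle how many mice these stand for, so every n here is a number of arrays, and p-values measure the spread between arrays only. The values are intensities on a linear scale after RMA normalization, called units here. The median probe set lay at 38.9 to 40.4 units on each array, and log2 intensities correlated at 0.994 to 0.997 between arrays of 1 condition. No detection calls were used, so values under this median are described as dim and nothing is said of whether the gene was expressed. In bulk RNA, fewer cells of a type and less RNA per cell cannot be told apart. All 6 macrophage markers checked, among them Csf1r and Adgre1 (F4/80), exceeded 64 units. Their summed intensity was 66061 to 67951 units in M0, 57716 to 58362 in M1 and 50427 to 53410 in M2. Adgre1 had means of 9730, 10678 and 4601 units in M0, M1 and M2, and Mertk 1727, 972 and 817. Cd68 had 15149, 9192 and 12382, while Csf1r, Itgam and Lyz2 differed by smaller factors. Among the markers of other cells, 1 of 5 for neutrophils, 0 of 3 for T cells, 1 of 3 for B cells, 2 of 5 for fibroblasts, 0 of 4 for mast cells and basophils, 0 of 3 for eosinophils and 2 of 4 for dendritic cells exceeded 64 units on any array. The summed fibroblast markers lay at 134 to 163 units in M0, 186 to 326 in M1 and 152 to 252 in M2. Col1a2 had means of 72.7, 118 and 118 units in M0, M1 and M2, and Dcn 27.6, 62.8 and 26.1. Col1a1, Col3a1 and Pdgfra differed by a few units. The summed eosinophil markers, all dim, lay at 57.1 to 59.0 units in M2 and 39.7 to 44.2 in the other conditions. The summed B cell markers were lower in M1 (73.8 to 110 units) than in M0 (126 to 141) or M2 (111 to 117). Against M0 this was Cd79b, with means of 85.0 units in M0 and 47.0 in M1. Ms4a1 (16.2 and 17.1) and Cd79a (32.8 and 31.8) hardly differed. The summed dendritic cell markers were 181 to 198 units in M0, 202 to 211 in M1 and 195 to 233 in M2. The part of other cells, and of the macrophage markers, in the results was not tested.

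The promoter table used here held Gch1, Odc1, Sat1 and Ass1. The sequences just before the first 3 are shown because these genes moved in different ways, and that of Ass1 is not, since its own probe set was dim and the other is shared. They run 5′ to 3′ on the gene's strand, stop at the last base before the annotated gene, and come from RefSeq on build GRCm38.p6. Capitals mark matches to 4 motifs searched on both strands. These were a STAT6 palindrome (TTC and GAA 4 bases apart), an NF-kappaB-like motif (GGG and CC 5 bases apart), an E-box (CACGTG) and a TATA box (TATAAA).
Gch1 upstream of the gene, chr14:47189414-47189663, minus strand: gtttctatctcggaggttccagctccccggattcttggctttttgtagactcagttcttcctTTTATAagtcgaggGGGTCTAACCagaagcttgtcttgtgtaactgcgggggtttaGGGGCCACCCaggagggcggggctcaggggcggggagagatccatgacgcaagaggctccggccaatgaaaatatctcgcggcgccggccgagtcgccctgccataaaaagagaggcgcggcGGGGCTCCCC
Odc1 upstream of the gene, chr12:17544623-17544807, plus strand: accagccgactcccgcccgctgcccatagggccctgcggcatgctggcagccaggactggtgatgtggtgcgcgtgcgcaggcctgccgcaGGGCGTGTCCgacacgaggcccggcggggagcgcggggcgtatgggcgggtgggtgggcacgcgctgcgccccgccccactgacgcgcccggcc
Sat1 upstream of the gene, chrX:155216450-155216699, minus strand: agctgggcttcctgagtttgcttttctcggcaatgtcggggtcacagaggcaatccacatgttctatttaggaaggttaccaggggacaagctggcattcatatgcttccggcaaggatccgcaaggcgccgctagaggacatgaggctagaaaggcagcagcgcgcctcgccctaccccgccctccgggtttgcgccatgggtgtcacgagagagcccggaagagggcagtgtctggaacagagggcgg

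The Gch1 window held 3 NF-kappaB-like matches, beginning at positions -174, -132 and -10 before the gene, and a TATA box motif read on the opposite strand at -188. The Odc1 window, with 185 bases, held 1 NF-kappaB-like match at -94, and the Sat1 window held none of the 4 motifs. The NF-kappaB-like motif is loose: it was found in 45.8% of 32851 promoter windows of 250 bases and in 34.2% of windows of 185 bases. The STAT6 palindrome was found in 5.85% of windows of 250 bases (4.44% at 185 bases), the E-box in 6.02% (3.88%) and the TATA box in 12.4% (8.55%). These matches describe the letters of the windows and say nothing of binding.

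Transcripts of arginine metabolism changed in both activated states, with Slc7a2 raised in both M1 and M2, Nos2 and Gch1 raised in M1, and Arg1 and Srm raised in M2. A probe set counts as raised or lowered at a Benjamini-Hochberg adjusted p under 0.05 in limma, whatever the fold. In M1 against M0, 10 of the 17 probe sets, from 5 genes, rose, 1 fell and 6 did not pass, where 10.2% of all probe sets rose and 10.2% fell. In M2 against M0, 9 probe sets, also from 5 genes, rose, 8 did not pass and 0 fell, where 6.32% of all probe sets rose and 5.85% fell. At an unadjusted p under 0.05, limma also had 0 of the 17 lower in M2, and the methods' t-test had 1. In M1 against M2 directly, 9 probe sets were higher, 5 lower and 3 did not pass, where 8.87% of all were higher and 10.1% lower. The median log2 fold change of the 17 was 0.87 in M1 and 0.50 in M2, and that of all probe sets was 0.01 in each. Slc7a2 holds 4 of the 17 probe sets, so these counts are not counts of independent genes. The genes were also chosen with earlier results of these data known, so these shares are a description and not a test. M1 and M2 are compared with the same 3 M0 arrays.

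**Figure D1:**
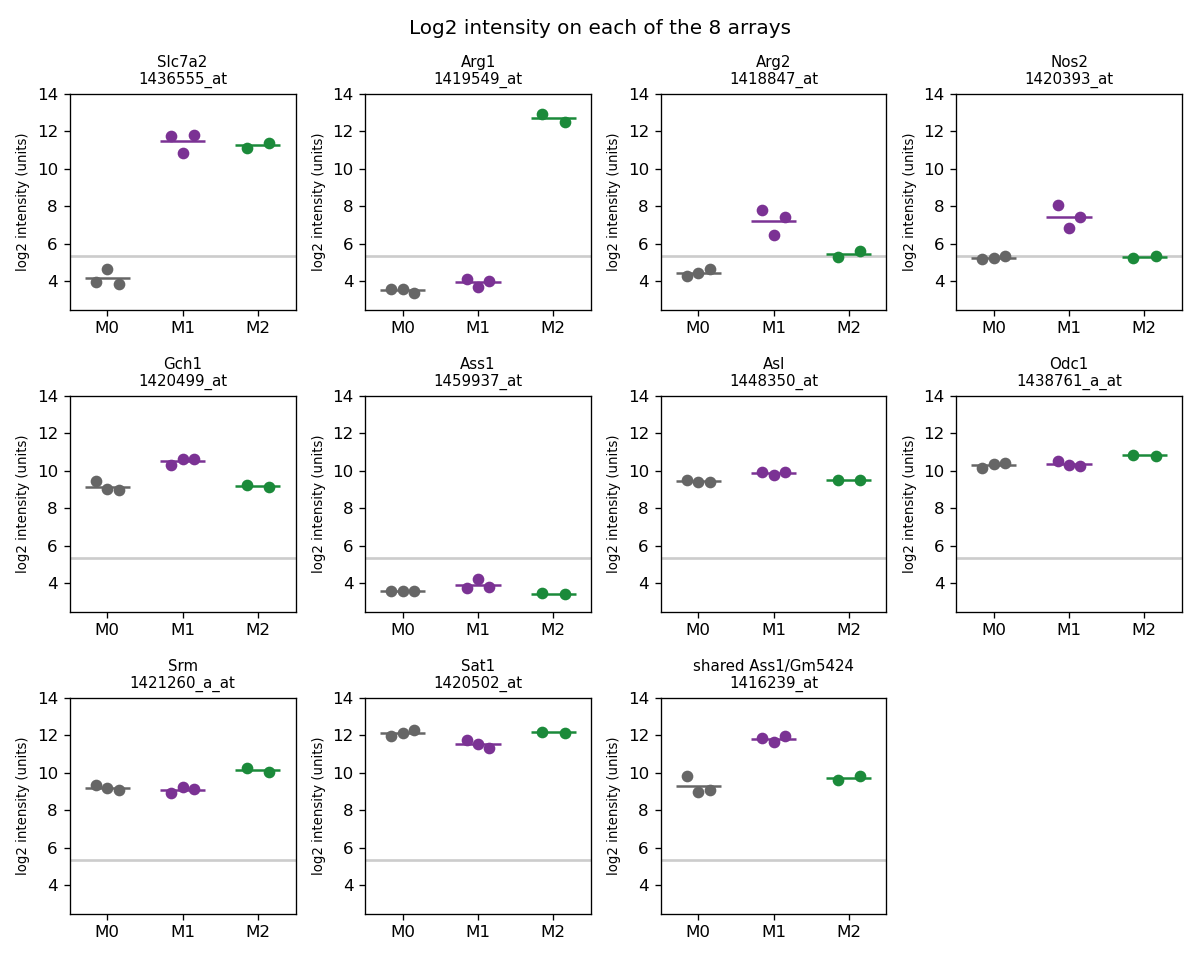
Log2 intensity (units) on each array for the 10 genes, each by its probe set of highest mean, and for the probe set shared by Ass1 and Gm5424. Circles are arrays, short lines are group means of log2 values, and the grey band spans the array medians of 38.9 to 40.4 units. Arg1 was far above that band on the M2 arrays only, Slc7a2 on all M1 and M2 arrays.

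Slc7a2, which encodes the cationic amino acid transporter CAT2, rose in both states from a dim level. Its probe set 1436555_at read 15.9, 24.9 and 14.3 units in M0, 3522, 1842 and 3655 in M1, and 2245 and 2665 in M2. Every activated array was above every M0 array, while the M1 and M2 arrays overlapped. The log2 fold change was 7.33 in M1 (SE 0.25, adjusted p = 2.8e-09), the rank 2 rise of all 45037 probe sets, and 7.10 in M2 (SE 0.28, adjusted p = 1.6e-08), the rank 6 rise. Because M0 was dim, these sizes depend on the lower end of the scale, and with every value under 64 units set to 64 the folds were 44.9 in M1 and 38.2 in M2.

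The other Slc7a2 probe sets gave the same directions. Probe set 1426008_a_at read 18.5 to 18.9 units in M0, 1829 to 3805 in M1 and 1002 to 1168 in M2, and 1422648_at read 18.5 to 23.7, 1543 to 3062 and 934 to 1253 units. Both separated M1 from M2 without overlap. The remaining probe set, 1450703_at, read 6.62 to 9.20 units in M0, 75.2 to 211 in M1 and 94.7 to 125 in M2. Their log2 fold changes were 7.28, 6.84 and 4.09 in M1 and 5.85, 5.72 and 3.74 in M2, and each passed. The last one, at 1.11 in M1 (adjusted p = 0.218) and 0.77 in M2 (adjusted p = 0.351) with the limit of 64 units, no longer did.

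Whether Slc7a2 differed between the M1 and M2 states depended on the probe set. The M1 minus M2 difference was 0.23 (95% interval -0.38 to 0.85, adjusted p = 0.673) at 1436555_at and 0.35 (adjusted p = 0.569) at 1450703_at. It was 1.43 (adjusted p = 0.0010) at 1426008_a_at and 1.12 (adjusted p = 0.0060) at 1422648_at. The call at 1422648_at was lost without M2 replicate 1, where the difference was 0.91 (adjusted p = 0.0902), and 1450703_at passed at 0.79 (adjusted p = 0.0152) without M1 replicate 2. All M1 and M2 values of these 2 probe sets lay above 64 units, so that their differences were unchanged at 1.43 and 1.12 with that limit, yet neither passed in that fit (adjusted p of 0.0705 and 0.126). No gene lay close to Slc7a2 in its pair of log2 fold changes in M1 and M2, and the nearest were AA467197, Il6 and Ch25h, at distances of 3.59, 4.35 and 4.41.

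**Figure D2:**
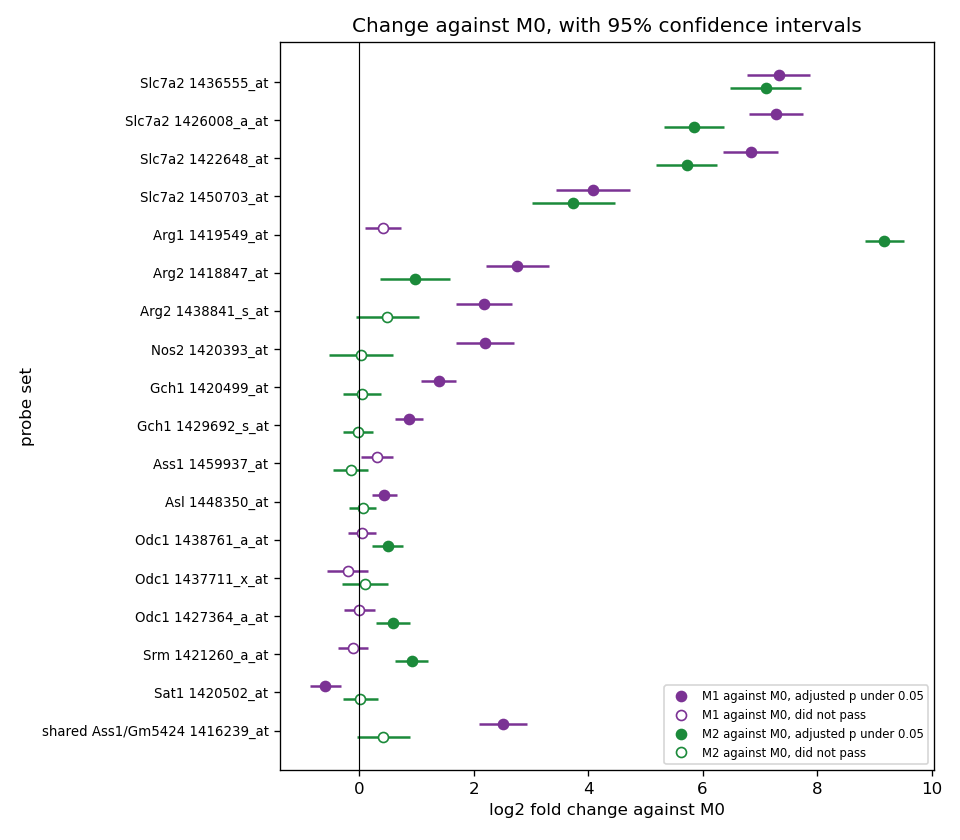
Log2 fold change of each probe set in M1 and in M2 against the same M0 arrays, with 95% confidence intervals from limma. Filled circles passed an adjusted p of 0.05. The Slc7a2 probe sets were raised in both states, while Arg1 at 9.17 in M2 stood apart from its 0.42 in M1.

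Arg1, the cytosolic arginase, was the most strongly raised probe set of all 45037 in M2. It read 11.9, 12.3 and 10.5 units in M0, 17.6, 12.9 and 16.2 in M1, and 7699 and 5761 in M2. The M2 arrays were bright and all M0 and M1 arrays were below the array median. In M2 the log2 fold change was 9.17 (SE 0.16, adjusted p = 8.7e-12), or 104-fold with values under 64 units set to 64. The M1 minus M2 difference was -8.75 (SE 0.16, adjusted p = 1.0e-11), the largest fall in that comparison. The genes nearest to Arg1 in their pair of log2 fold changes in M1 and M2 were Retnla (-0.22 and 7.98), Mgl2 (-0.37 and 8.05) and Rnase2a (0.05 and 7.72), at distances of 1.36, 1.37 and 1.50.

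In M1, Arg1 lay above M0 on every array but at levels where both were dim. It had a log2 fold change of 0.42 (SE 0.14, 95% interval 0.11 to 0.73, adjusted p = 0.0580) and did not pass. It passed in a fit of only the M0 and M1 arrays (adjusted p = 0.0412), after median centring (0.0409) and without M1 replicate 2 (0.55, adjusted p = 0.0174). Leaving out either M2 array gives the same test as the fit of M0 and M1 only, since the M2 array left adds no spread. Under the limit of 64 units the Arg1 difference between M1 and M0 was 0.

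Arg2, the mitochondrial arginase, followed another order, with M1 the highest. Probe set 1418847_at read 19.9, 22.0 and 24.9 units in M0, 222, 90.1 and 172 in M1, and 38.9 and 48.7 in M2. The conditions did not overlap, and M2 lay between the other two. The log2 fold change was 2.77 in M1 (SE 0.25, adjusted p = 7.6e-06), 0.97 in M2 (SE 0.28, adjusted p = 0.0428), and 1.79 for M1 minus M2 (SE 0.28, adjusted p = 5.9e-04).

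The second Arg2 probe set, 1438841_s_at, read 14.2, 14.5 and 16.1 units in M0, 105, 45.9 and 64.2 in M1, and 22.4 and 19.7 in M2. It rose by 2.18 in M1 (adjusted p = 2.0e-05) and had 0.49 in M2, which did not pass (adjusted p = 0.267). In a fit of only the M0 and M2 arrays this change passed (adjusted p = 0.022), as did that of 1418847_at (adjusted p = 0.0018). The rise of 1418847_at in M2 rested on near-median intensities: it was lost without any 1 of the M0 or M2 arrays or without M1 replicate 3, at 0.81 to 1.14 with adjusted p of 0.0529 to 0.239, and with an intensity trend (adjusted p = 0.0787). With the limit of 64 units its change was 0 in M2 and 1.24 in M1 (adjusted p = 0.102), and that of 1438841_s_at in M1 was 0.24 (adjusted p = 0.584).

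Nos2 makes nitric oxide from arginine and rose in M1. It read 36.2, 38.4 and 40.3 units in M0, 273, 113 and 175 in M1, and 37.9 and 40.5 in M2. Every M1 array was above all others, while M0 and M2 overlapped near the array median. In M1 the log2 fold change was 2.20 (SE 0.23, adjusted p = 2.4e-05), and M1 exceeded M2 by 2.17 (SE 0.26, adjusted p = 6.4e-05). In M2 it was 0.03 (95% interval -0.53 to 0.60, adjusted p = 0.961). With the limit of 64 units the change in M1 was 1.46 (adjusted p = 0.0541) and M1 minus M2 the same 1.46 (adjusted p = 0.0805). The genes nearest to Nos2 in their changes were Lrrk2 (2.30 in M1 and -0.03 in M2), Dtx2 (2.32 and 0.06) and Clmp (2.20 and 0.16), at distances of 0.12, 0.12 and 0.13.

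Gch1, the first enzyme of tetrahydrobiopterin synthesis, also rose in M1. Probe set 1420499_at read 694, 518 and 506 units in M0, 1288, 1605 and 1574 in M1, and 608 and 566 in M2. No M1 array overlapped with M0 or M2. Gch1 had a log2 fold change of 1.39 in M1 (SE 0.14, adjusted p = 1.4e-05), and M1 exceeded M2 by 1.34 (adjusted p = 4.4e-05). The M2 change was 0.05 (95% interval -0.28 to 0.38). The second probe set, 1429692_s_at, at 98.6 to 104 units in M0, 179 to 194 in M1 and 88.4 to 114 in M2, rose by 0.87 in M1 (adjusted p = 1.0e-04) and had -0.02 in M2.

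The M1 arrays did not rank alike for these genes. M1 replicate 2 was the lowest M1 array for Nos2, Arg1, both Arg2 probe sets and all 4 of Slc7a2. For Gch1 it was the highest at 1420499_at but the lowest at 1429692_s_at, with 179 units against 184 and 194. Without M1 replicate 2 the log2 fold changes in M1 were 2.52 for Nos2, 3.14 for Arg2 1418847_at and 7.65 for Slc7a2 1436555_at. All of them still passed.

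Of the enzymes that rebuild arginine, Asl, argininosuccinate lyase, rose slightly in M1. It read 743, 682 and 691 units in M0, 997, 886 and 996 in M1, and 743 and 733 in M2. All M1 arrays were above the others, and M0 and M2 overlapped. The log2 fold change was 0.44 in M1 (SE 0.10, adjusted p = 0.0053) and 0.07 in M2 (95% interval -0.17 to 0.30). M1 exceeded M2 by 0.38 (adjusted p = 0.0279), a call lost without M1 replicate 1, M1 replicate 3 or either M2 array (0.35 to 0.39, adjusted p of 0.0645 to 0.105) and in a fit of only M1 and M2 (adjusted p = 0.0671).

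Ass1, argininosuccinate synthase, is the step before Asl. Its own probe set, 1459937_at, was dim on all arrays, with 12.1 to 12.2 units in M0, 13.3 to 18.7 in M1 and 10.8 to 11.2 in M2. The log2 fold change was 0.31 in M1 (adjusted p = 0.116) and -0.15 in M2, neither of which passed. M1 exceeded M2 by 0.46 (adjusted p = 0.0399), which was lost without any 1 of the M0 or M2 arrays or M1 replicate 2 (0.30 to 0.48, adjusted p of 0.0522 to 0.157), in a fit of only M1 and M2 (0.0832) and after median centring (0.0524), and was 0 with the limit of 64 units.

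The probe set shared by Ass1 and Gm5424 was bright and rose in M1. It read 917, 514 and 546 units in M0, 3749, 3187 and 4004 in M1, and 783 and 929 in M2. All M1 arrays were above the others. Its log2 fold change was 2.51 in M1 (SE 0.19, adjusted p = 1.6e-06), and M1 exceeded M2 by 2.09 (adjusted p = 1.6e-05). In M2 it was 0.42 (SE 0.21, adjusted p = 0.257), and without M0 replicate 1, the highest M0 array, 0.69 (adjusted p = 0.0117). Which of these genes the signal comes from cannot be told apart on this array.

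The polyamine genes moved in M2 or fell in M1. Srm, spermidine synthase, read 652, 590 and 546 units in M0, 487, 612 and 570 in M1, and 1215 and 1047 in M2. Both M2 arrays were above all others, and M0 and M1 overlapped. Srm rose by 0.92 in M2 (SE 0.13, adjusted p = 5.8e-04), and the M1 minus M2 difference was -1.03 (SE 0.13, adjusted p = 1.2e-04). In M1 it was -0.10 (95% interval -0.36 to 0.16).

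Odc1, ornithine decarboxylase, also rose in M2. Probe set 1438761_a_at read 1155, 1308 and 1399 units in M0, 1500, 1261 and 1249 in M1, and 1856 and 1783 in M2. The M2 arrays were the highest and M0 and M1 overlapped. The log2 fold change was 0.50 in M2 (SE 0.13, adjusted p = 0.0201) and 0.05 in M1 (95% interval -0.19 to 0.30), and the M1 minus M2 difference was -0.45 (adjusted p = 0.0236).

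These Odc1 calls were close to the threshold. That in M2 was lost without M0 replicate 1, M0 replicate 2 or either M2 array (0.43 to 0.53, adjusted p of 0.0557 to 0.113), and that between M1 and M2 without M1 replicate 2, M1 replicate 3 or either M2 array (-0.48 to -0.40, adjusted p of 0.0644 to 0.127). Probe set 1427364_a_at, at 153 to 162 units in M0, 146 to 168 in M1 and 202 and 280 in M2, rose by 0.59 in M2 (adjusted p = 0.0149) and differed by -0.59 between M1 and M2 (adjusted p = 0.0098). Without M2 replicate 1 these were 0.36 (adjusted p = 0.157) and -0.35 (adjusted p = 0.132). A further probe set, 1437711_x_at, read 780 to 884, 529 to 895 and 831 to 946 units in M0, M1 and M2, and passed in no comparison.

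Sat1, the acetyltransferase that starts the breakdown of spermidine and spermine, was the 1 member lowered in M1. It read 4030, 4551 and 5039 units in M0, 3455, 3017 and 2611 in M1, and 4683 and 4508 in M2. All M1 arrays were below all others. Sat1 fell by 0.59 on the log2 scale in M1 (SE 0.12, adjusted p = 0.0043) and had 0.02 in M2 (95% interval -0.28 to 0.32). M1 minus M2 was -0.61 (adjusted p = 0.0073), and -0.58 (adjusted p = 0.0596) without M2 replicate 1.

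**Figure D3:**
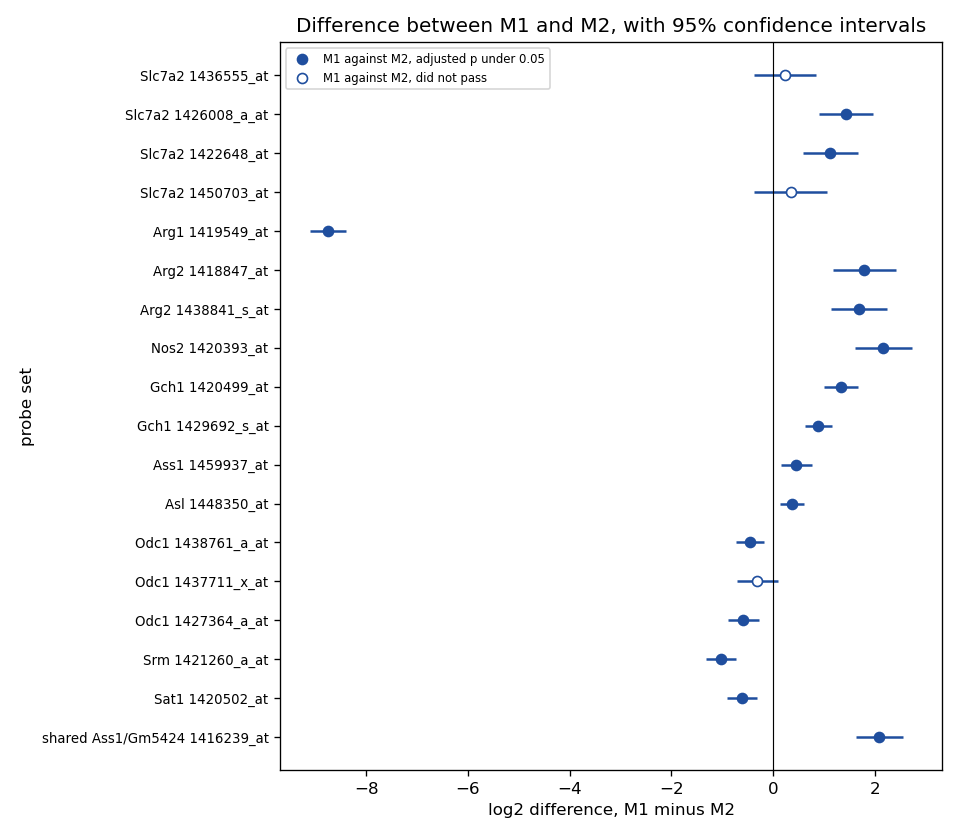
Log2 difference of each probe set between the M1 and M2 arrays (M1 minus M2), with 95% confidence intervals from limma. Filled circles passed an adjusted p of 0.05. Nos2, Arg2 and Gch1 lay on the M1 side and Arg1, Srm and Sat1 on the M2 side, with Arg1 at -8.75.

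M2 rested on 2 arrays. A fit without either of them leaves 1 M2 array, which has no spread of its own. Any call given here as lost without an M2 array may reflect that smaller number of arrays as well as the array left out. These were not told apart. By the methods' t-test, which does not share the spread between probe sets, 10 members passed as higher and 0 as lower in M1, 4 as higher in M2, and 0 as higher and 1, Arg1, as lower in M1 against M2. The calls lost against M0 were those of Sat1 in M1 and, in M2, of Srm, Arg2, the 2 Odc1 probe sets that had passed and Slc7a2 1450703_at, with adjusted p of 0.0537 to 0.236. With the limit of 64 units the counts were 6 and 0 in M1, 5 higher in M2, and 3 and 2 between M1 and M2. Sat1 in M1 (adjusted p = 0.0564) and the same Odc1 probe sets in M2 (0.0983 and 0.119) then failed to pass although their values lay above the limit. At a change of at least 2-fold, 8 members were higher and 0 lower in M1, 5 higher in M2, and 6 higher and 2 lower in M1 against M2.

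Most of the wider pathway did not pass. Of 45 further genes in 8 lists of arginine, nitric oxide and polyamine metabolism, 39 had a probe set of their own. In M1, 5 rose, 6 fell and 28 did not pass, and in M2, 4 rose, 3 fell and 32 did not. These were 12.8% higher and 15.4% lower in M1, and 10.3% and 7.69% in M2, where the shares of all probe sets were 10.2% and 10.2%, and 6.32% and 5.85%. The bases are unlike here and in the lists below. Each gene stands by its probe set of highest mean, while the shares are over all 45037 probe sets. Of those, 19390 had a mean log2 intensity of at least 6 in any group. The median log2 fold change was 0.00 in M1 and 0.01 in M2. In M1 against M2, 6 were higher (15.4%) and 11 lower (28.2%), where 8.87% and 10.1% of all probe sets were. By the methods' t-test 0 of the 39 rose in M2 (8 at an unadjusted p under 0.05, and 11 in limma) and 1, Slc7a7, fell, while limma had 7 higher with an intensity trend and 8 with dim probe sets left out. The methods' t-test gave 4 higher and 4 lower in M1, without Gatm (adjusted p = 0.0775), Spr (0.0712) and Mtap (0.0986), and 2 higher and 0 lower in M1 against M2, where 12 were lower at an unadjusted p under 0.05 and 13 in limma. With the limit of 64 units 1 was higher and 1 lower in M2, and Slc7a1, Aldh18a1 and Dhps, with unchanged log2 fold changes, had adjusted p of 0.0503 to 0.0545.

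Of 6 arginine transporter genes, 2 rose in M1 (33.3%, against 10.2% of all probe sets). In M2, 2 rose (33.3%, against 6.32%) and 1 fell (16.7%, against 5.85%). Slc7a1, the constitutive cationic transporter CAT1, rose in M2 by 1.50 (SE 0.20, adjusted p = 4.0e-04), from 632 ± 159 to 1753 ± 252 units (SD, n = 3 and 2). It had 0.43 in M1 (adjusted p = 0.133), and the M1 minus M2 difference was -1.07 (adjusted p = 0.0024). Slc7a7, which exports arginine from the cell with Slc3a2, fell by 1.87 in M2 (SE 0.13, adjusted p = 1.7e-06), from 813 ± 16.5 to 223 ± 6.98 units, and was at 819 ± 129 units in M1. Slc7a6, its relative, rose by 1.02 in M1 (adjusted p = 2.7e-05), and Slc3a2, the partner of both, by 0.71 (adjusted p = 5.6e-04). The mitochondrial ornithine carrier Slc25a15 rose by 0.46 in M2 (adjusted p = 0.0222), a call lost without M0 replicate 1 or either M2 array (0.38 to 0.53, adjusted p of 0.0502 to 0.148).

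Of 4 genes that link ornithine, proline and glutamate, 1 fell in M1 (25%, against 10.2% of all probe sets). In M2, 1 rose (25%, against 6.32%). Aldh18a1, which makes the proline precursor from glutamate, rose by 1.49 in M2 (SE 0.20, adjusted p = 3.8e-04), from 195 ± 51.7 to 536 ± 34.2 units, with 0.40 in M1 (adjusted p = 0.164) and, without M0 replicate 1, 0.59 (adjusted p = 0.0284). Oat, ornithine aminotransferase, fell by 0.64 in M1 (adjusted p = 6.1e-04) and differed by -0.53 between M1 and M2 (adjusted p = 0.0056).

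Of the creatine genes, Gatm, which moves the amidino group of arginine to glycine, rose by 1.20 in M1 (SE 0.18, adjusted p = 4.4e-04), and Gamt, which completes creatine, fell by 1.84 (SE 0.13, adjusted p = 8.4e-07), from 472 ± 37.2 to 132 ± 20.3 units. These successive enzymes thus moved in opposite directions in M1. Neither passed in M2, though Gatm, at 0.59 (adjusted p = 0.0902), did at 0.78 (adjusted p = 0.0187) without M0 replicate 3.

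In the tetrahydrobiopterin list, 2 of 6 genes fell in M1 (33.3%, against 10.2% of all probe sets) and 4 did not pass, where Gch1 itself rose. Qdpr, which regenerates the cofactor, fell by 0.61 (adjusted p = 0.0017), from 3522 ± 277 to 2311 ± 255 units, and the M1 minus M2 difference was -1.01 (adjusted p = 8.5e-05). The other gene of that list to fall was Spr, the last enzyme of tetrahydrobiopterin synthesis, by 0.43 (adjusted p = 0.0113), with -0.37 without M0 replicate 1 (adjusted p = 0.0517) or M1 replicate 1 (adjusted p = 0.0509). In the list of nitric oxide synthesis and its control, 1 of 5 genes fell in M1 (20%, against 10.2% of all probe sets). This was Ddah2, a relative of the enzyme that breaks down methylated arginine, by 0.53 (adjusted p = 0.0018). The other 4 genes did not pass in M1, and 0 of the 5 passed in M2.

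Among the polyamine genes outside the members, Smox, spermine oxidase, moved both ways. It rose by 0.73 in M1 (adjusted p = 2.4e-04) and fell by 0.44 in M2 (adjusted p = 0.0267), with 485 ± 33.9 units in M0, 802 ± 64.1 in M1 and 358 ± 12.1 in M2. The M1 minus M2 difference was 1.16 (SE 0.11, adjusted p = 1.2e-05). Its fall in M2 was lost without M0 replicate 1, M0 replicate 3 or either M2 array (-0.47 to -0.40, adjusted p of 0.0806 to 0.136). Atp13a2, a lysosomal polyamine exporter, fell by 0.59 in M2 (adjusted p = 0.0118), and had -0.50 (adjusted p = 0.107) without M2 replicate 1. Dhps, which uses spermidine to make hypusine on eIF5A, rose by 0.80 in M1 (adjusted p = 3.0e-04) and 0.68 in M2 (adjusted p = 0.0040), and had 0.53 (adjusted p = 0.0565) in M2 without M2 replicate 2. Mtap, which salvages the by-product of polyamine synthesis, fell by 0.46 in M1 (adjusted p = 0.0120), with -0.42 without M0 replicate 2 (adjusted p = 0.0602), -0.38 without M1 replicate 1 (adjusted p = 0.0559), and an adjusted p of 0.0710 with the limit of 64 units. Without M2 replicate 1, 1 of the 39 genes was lower in M2 than in M0.

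**Figure D4:**
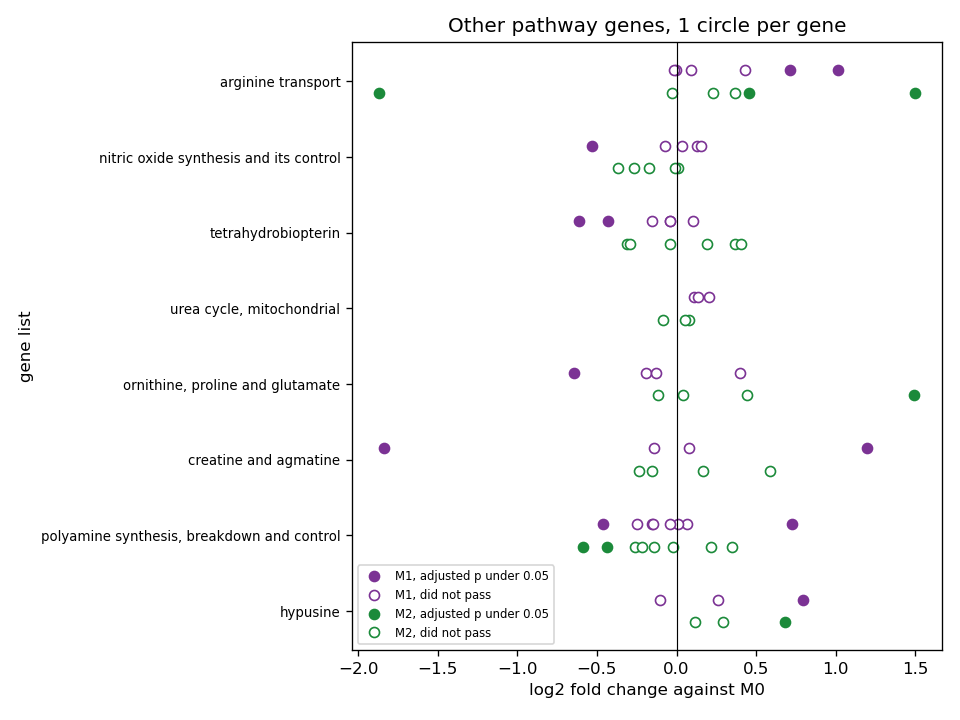
Log2 fold change in M1 and in M2 against the same M0 arrays for 39 further genes in 8 lists, 1 circle per gene. Filled circles passed an adjusted p of 0.05. Gamt (-1.84 in M1) and Slc7a7 (-1.87 in M2) were the lowest, and Slc7a1 (1.50) and Aldh18a1 (1.49) in M2 the highest.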

How the data were processed

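RNA of 8 cultures of bone marrow-derived macrophages was hybridised to Affymetrix mouse arrays. The deposited intensity values come from the authors' RMA processing in GenePattern, which corrects background, quantile normalizes and summarizes probe sets, so that an overall shift in RNA content between conditions would be removed. The values are on a linear scale, and log2 was taken here. Of 45101 probe sets, 64 controls were left out.

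The remaining 45037 probe sets were tested with limma 3.58.1 in R 4.3.3 (lmFit and eBayes, a mean for each condition over the 8 arrays, 5 residual and 6.95 prior degrees of freedom). P-values were two-sided and adjusted by Benjamini and Hochberg over all probe sets. The number of arrays limits the precision. The procedure was run on simulated data with independent noise and changes planted in M2 only. This covered neither arrays that share a mouse nor changes smaller than 2-fold.

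Probe sets were named from GEO's platform annotation, which gives 1 symbol to 34945 of them. Each gene was represented by its probe set of highest mean log2 intensity. The genes and lists were chosen with earlier results of these data known. All 10 members are named, and of the other pathway genes the 4 largest rises and falls that passed in each of M1 and M2, besides Slc3a2, Spr and Mtap, named after their values were seen. Similar genes were found by Euclidean distance between log2 fold changes. Of the 45 other pathway genes, 6 were not used here, and some items are not reported here.

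Alternatives were the methods' t-test, the replicate block, an intensity trend with robust variances, median centring, a lower limit of 64 units, fits without the third condition, a second quantile normalization, dim probe sets left out (mean log2 intensity under 6 in every group), a change of at least 2-fold, an adjusted p under 0.01, the probe set of largest variance, the shared probe set counted (chosen after seeing the data) and each array left out. Plots used matplotlib 3.10.9 (Python 3.11.15).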

Additional observations from a re-analysis of the deposited data

How the results depend on the processing

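The alternatives gave 972 log2 fold changes of the 17 member probe sets and the shared one. Of these, 848 kept their direction and side of the threshold, 92 no longer passed and 10 came to pass. A further 22 lost or changed their sign where neither value passed, and 0 changed sign where either passed. Direction could not change under the methods' t-test, the fits without the third condition, the intensity trend or with dim probe sets left out. Nor could it under the 2-fold limit or the adjusted p under 0.01. These leave the log2 fold change as it was, as does leaving out an array of the third condition. Of the 92, 28 came from leaving out an array. Member counts were 10 to 11 higher and 1 lower in M1 against M0, 6 to 9 higher and 0 lower in M2 against M0, and 6 to 9 higher and 2 to 5 lower in M1 against M2 over the 8 leave-one-out fits. The other pathway genes gave 5 to 6 and 4 to 6 in M1 against M0, 3 to 5 and 1 to 4 in M2 against M0, and 4 to 6 and 8 to 11 in M1 against M2. By the methods' t-test, members lower in M1 were 0, higher in M2 4, and higher and lower in M1 against M2 0 and 1. The other pathway genes then gave 0 higher and 1 lower in M2, and 2 higher and 0 lower in M1 against M2. With the limit of 64 units, members were 6 and 0 in M1, 5 higher in M2, and 3 and 2 between M1 and M2. The other genes gave 1 higher and 1 lower in M2 and 7 lower in M1 against M2. Under this limit many probe sets are constant, and members that lay wholly above it, such as Sat1 at -0.59 in M1 (adjusted p = 0.0564), also lost their calls. At 2-fold, members lower in M1 were 0, higher in M2 5 and lower in M1 against M2 2, and the other genes 2 and 1 in M1, 2 and 1 in M2, and 2 and 4 in M1 against M2. Other genes higher in M2 were 7 with an intensity trend and 8 with dim probe sets left out, and those lower in M2 were 1 at an adjusted p under 0.01. The causes were not tested. The shared probe set, if counted, would give 11 members higher in M1.

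The labels number the arrays alike across conditions. Deviations from the condition mean had r of -0.172 to 0.0547 over 7 same-numbered pairs and -0.150 to 0.190 over 14 others. By these values 1 of 8 arrays correlated best with its own number. With 2 M2 arrays their deviations are mirror images, so pairs with M2 repeat each value with both signs. Pairs with M2 therefore cannot show whether arrays of the same number were paired. Same-numbered M0 and M1 arrays, which are not mirrored in this way, had r of -0.172, 0.0507 and -0.0241. Differently numbered ones had -0.150 to 0.190. These few values do not settle whether the arrays were paired. With the replicate number as a block, members higher were 11 in M1 and 8 in M2, those in M1 against M2 were 7 higher and 4 lower, and the probe sets passing overall were 8503, 4798 and 7481 in the 3 comparisons, against 9175, 5483 and 8549 without it. Under the block Arg1 in M1 against M0 passed (adjusted p = 0.0497), and Odc1 1438761_a_at in M2 against M0 (0.0512) and in M1 against M2 (0.0585), Asl (0.0653) and Ass1 (0.0548) in M1 against M2, and Slc25a15 (0.0664) and Smox (0.0809) in M2 against M0 did not. No other member call changed, nor did any other call against M0 of a gene named here.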
